A study of Homo sapiens with 12 samples.

Results

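The mitosis and G2/M genes are a set of 44 protein-coding genes that act from late G2 to the end of cell division. Members were taken by gene symbol from the deposited expression table, with no filter on their measured values but with earlier results of these data known. All 44 were found among its 18950 genes. By role they comprised 6 cyclin, CDK1 and CDC25 genes, 3 mitotic kinases, 3 subunits of the chromosomal passenger complex, 3 spindle checkpoint genes, 3 genes of the anaphase-promoting complex and its substrates, 6 centromere and kinetochore genes, 5 kinesins, 7 other spindle microtubule proteins, 5 genes of chromosome structure and 3 genes of cytokinesis and mitotic entry.

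RNA sequencing covered the established human prostate cancer lines DU145 and PC3, grown in DMEM with 10% serum. Each line was sorted by GFP fluorescence. The brightest 10% (GFP high) stood for active and the dimmest 10% (GFP low) for inactive Wnt/β-catenin signalling, which gave 4 groups of 3 libraries each. The GFP construct and any clonal selection of the lines were not described in the sources used here. Whether the 3 libraries of a group derive from separate cultures, sorts or extractions is not stated, and p-values therefore measure only how far these libraries spread, which may be technical.

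Entry into mitosis is driven by CDK1 bound to cyclin A or cyclin B and activated by CDC25 phosphatases. Polo and Aurora kinases then build the spindle, kinetochores attach chromosomes to it, and the spindle checkpoint holds the anaphase-promoting complex until attachment is complete. Most of these genes are transcribed late in the cycle under the MuvB complexes with B-MYB and FOXM1 and under NF-Y, and their bulk RNA level is widely read as a measure of dividing cells. In bulk RNA, fewer cells in G2 and mitosis cannot be told apart from less RNA of these genes per cell.

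Estimated library totals ran from 13453614 to 21528810 counts. Line names are used as labelled. The epithelial markers EPCAM, CDH1 and KRT19 had at most 11 counts in any library, while KRT8 ran from 23205 to 47785 counts in DU145 and from 352 to 507 in PC3. The luminal prostate genes KLK3, KLK2 and TMPRSS2 had at most 1 count in any library. CTNNA1 had 6643 to 8704 counts in the libraries labelled PC3, a line in which this gene is described as deleted. Of the 8 immune, endothelial, fibroblast and erythroid markers found, 7 had at most 29 counts in every library, and CD68 had 66 to 698. PC3 GFP low replicates 2 and 3 stood apart, with 3495 and 3491 genes of the table at the lowest value against 4577 to 4819 in the other PC3 libraries, and their variance from each other was 38.1 times that of sampling. For the other pairs of replicates it was 5.56 to 23 times, highest for DU145 GFP high replicates 1 and 3.

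Some members moved in opposite directions in the 2 lines. In DU145 the set did not move as a block. In PC3 most members had a log2 fold change above 0, although only 4 of 44 passed the test. In DU145, 7 members were higher in GFP high cells, where 13.1% of all 12527 genes tested were higher, and 8 were lower, where 13.9% of all genes were lower. In PC3, 4 members were higher and 0 lower, against 4.17% and 5.27% of all genes. The share of members called in PC3, 9.09%, was close to the 9.44% of all genes, although 38 of 44 members had a log2 fold change above 0, as did 5812 of the 12527 genes. Without adjustment for multiple testing, limma called 12 members higher and 0 lower in PC3 at p under 0.05 (27.3% and 0%), where 10% of all genes were higher and 12.6% lower. After adjustment limma-voom on estimated counts called 5 higher and 0 lower, where 4.5% of all genes were higher and 5.55% lower. The median log2 fold change of the members was 0.22 in DU145 (-0.01 over all genes tested) and 0.15 in PC3 (-0.02 over all genes).

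**Figure D1:**
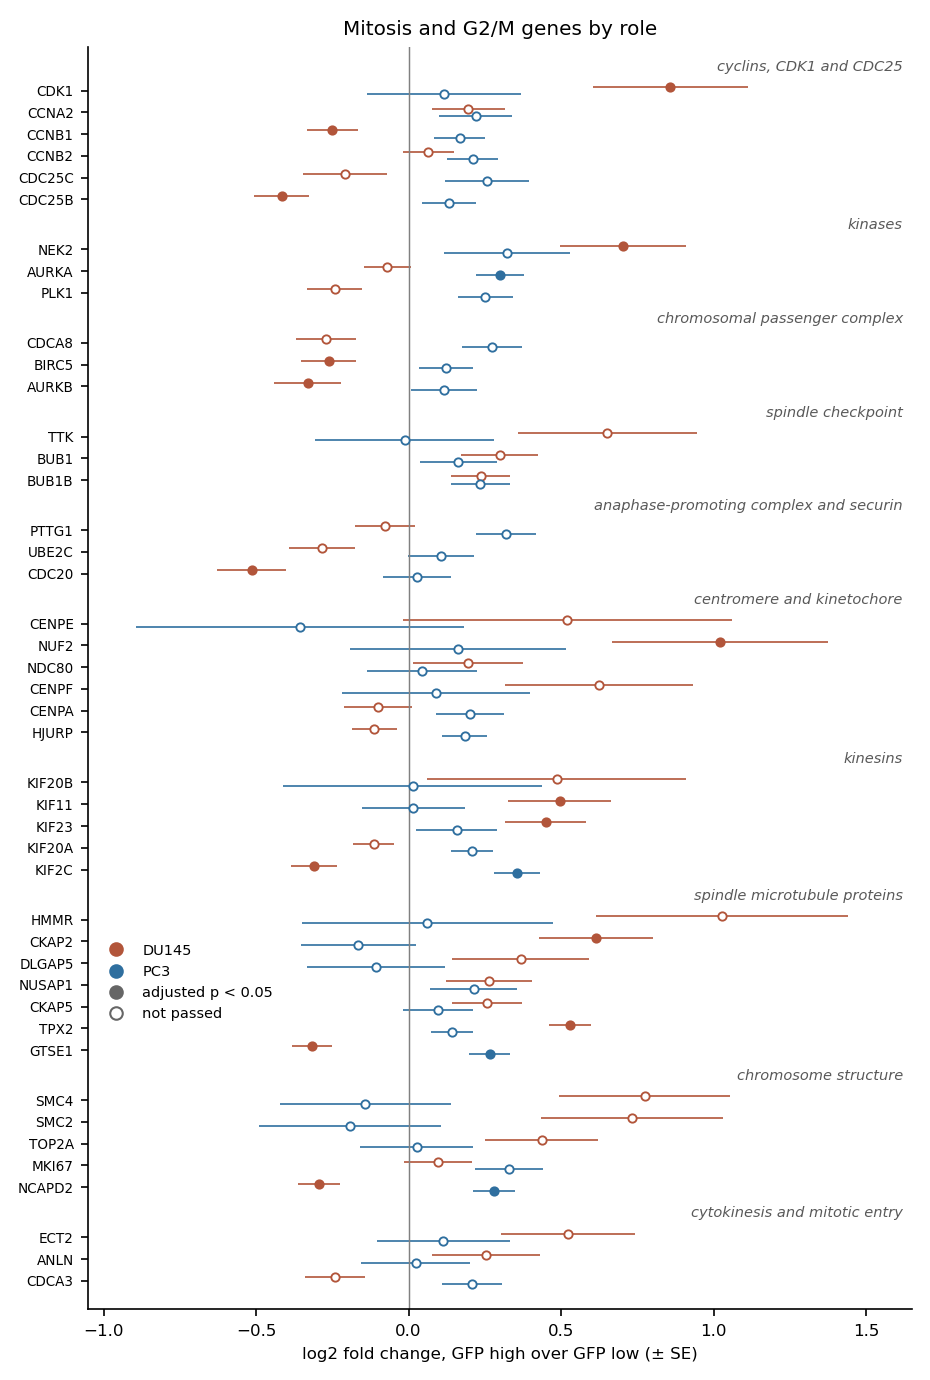
Log2 fold change of GFP high over GFP low cells (x axis, ± SE from limma) for the 44 members grouped by role, ordered by GC content within a role; red marks DU145 and blue PC3, and filled circles have an adjusted p under 0.05. KIF2C, GTSE1 and NCAPD2 have filled circles on opposite sides of 0, and the widest bars belong to CENPE, KIF20B and HMMR.

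These counts depended on single libraries, and the share of all genes called moved with them. The 7 DU145 rises became 1 without DU145 GFP high replicate 1 or 2 or without DU145 GFP low replicate 1 or 3, where 3.07 to 4.94% of all genes rose. They became 19 without DU145 GFP high replicate 3, where 22.2% of all genes rose, and 13 without PC3 GFP low replicate 2, where 16.5% did. The 8 DU145 falls became 3 without DU145 GFP high replicate 1 or low replicate 3 (4.08 and 4.25% of all genes). They became 5 without DU145 GFP high replicate 2 (4.9%), DU145 GFP low replicate 1 (5.62%), PC3 GFP high replicate 1 (11.5%) or PC3 GFP low replicate 1 (11.8%). The 4 PC3 rises became 7 without DU145 GFP high replicate 3 (5.12% of all genes), 1 without PC3 GFP high replicate 1 or PC3 GFP low replicate 1 (2.25 and 2.7%), and 0 without PC3 GFP high replicate 2 (2.34%), where 7 members were still higher at an unadjusted p under 0.05. Without DU145 GFP high replicates 1 and 2 together, TPX2 rose and 0 members fell in DU145 (4 lower at an unadjusted limma p under 0.05), where 0.575% of all genes rose and 0.782% fell. Without PC3 GFP low replicates 2 and 3 together, 0 members passed in PC3 (7 higher and 0 lower at an unadjusted limma p under 0.05), where 1.8% of all genes rose and 1.47% fell.

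KIF2C, GTSE1 and NCAPD2 fell in DU145 GFP high cells and rose in PC3 GFP high cells. They were the only 3 members that passed the test in both lines. The share of all genes that did so is not given here, so 3 of 44 cannot be set against it. KIF2C encodes the kinesin MCAK, which depolymerises microtubules at centromeres and so corrects faulty attachments. Its level in DU145 was 163, 186 and 186 CPM (counts scaled by library total) in the GFP high libraries and 221, 216 and 226 CPM in the GFP low libraries. In PC3 it was 303, 320 and 273 CPM in GFP high and 235, 240 and 225 CPM in GFP low. The sorts did not overlap in either line, and they were ordered in opposite ways. The log2 fold change of KIF2C was -0.31 ± 0.08 (SE, n = 3 against 3) in DU145, with a limma adjusted p of 0.0135, and 0.35 ± 0.08 in PC3, with an adjusted p of 0.00951.

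GTSE1, a microtubule-associated protein of G2 and S phase that inhibits MCAK and restrains p53, was at 104, 114 and 111 CPM in DU145 GFP high and 128, 142 and 140 CPM in DU145 GFP low. In PC3 GFP high it was at 157, 153 and 163 CPM and in PC3 GFP low at 130, 129 and 134 CPM. Its sorts did not overlap in either line. The log2 fold change was -0.32 ± 0.07 in DU145 (limma adjusted p = 0.00741) and 0.27 ± 0.07 in PC3 (adjusted p = 0.0231). NCAPD2, a subunit of condensin I that compacts mitotic chromosomes, was at 501, 533 and 536 CPM in DU145 GFP high and 640, 632 and 654 CPM in DU145 GFP low. It was at 573, 630 and 543 CPM in PC3 GFP high and 484, 497 and 455 CPM in PC3 GFP low, again with no overlap. Its log2 fold change was -0.30 ± 0.07 in DU145 (limma adjusted p = 0.0114) and 0.28 ± 0.07 in PC3 (adjusted p = 0.0210). In all 12 libraries the estimated count of NCAPD2 was fractional, and the gene shares 486 exonic bases with MRPL51 on the opposite strand, so its count may include reads of its neighbour.

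The difference between the lines was itself large for these genes. The DU145 effect minus the PC3 effect was -0.66 ± 0.11 for KIF2C (limma adjusted p = 0.00148), -0.58 ± 0.09 for GTSE1 (adjusted p = 0.00152) and -0.58 ± 0.10 for NCAPD2 (adjusted p = 0.00212). Each of these 3 differences passed the test under all 27 alternative settings that gave a value. The effects within each line were less firm. In PC3 the KIF2C rise missed the threshold without GFP high replicate 2 (log2 fold change 0.30, adjusted p = 0.0525). GTSE1 in PC3 missed it without GFP high replicate 1, 2 or 3 or GFP low replicate 1 or 2 (adjusted p 0.0522 to 0.0907), and NCAPD2 without GFP high replicate 1 or 2 or GFP low replicate 1 or 3 (0.0591 to 0.105). In DU145, KIF2C and NCAPD2 missed it without GFP high replicate 1 or GFP low replicate 3 (KIF2C 0.0593 to 0.0701, NCAPD2 0.0522 to 0.0568), and GTSE1 passed with any single library left out but not without GFP high replicates 1 and 2 together.

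AURKA, the centrosomal kinase that is activated on spindles by TPX2, was the other member that rose in PC3. It was at 214, 229 and 211 CPM in PC3 GFP high and 184, 181 and 167 CPM in PC3 GFP low, with no overlap and a log2 fold change of 0.30 ± 0.08 (limma adjusted p = 0.0283). In DU145 it was at 218, 250 and 228 CPM in GFP high and 229, 266 and 236 CPM in GFP low, and the sorts overlapped (log2 fold change -0.07 ± 0.08, adjusted p = 0.512). The PC3 rise missed the threshold without PC3 GFP high replicate 1, 2 or 3 or GFP low replicate 1 or 3 (adjusted p 0.0545 to 0.118).

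**Figure D2:**
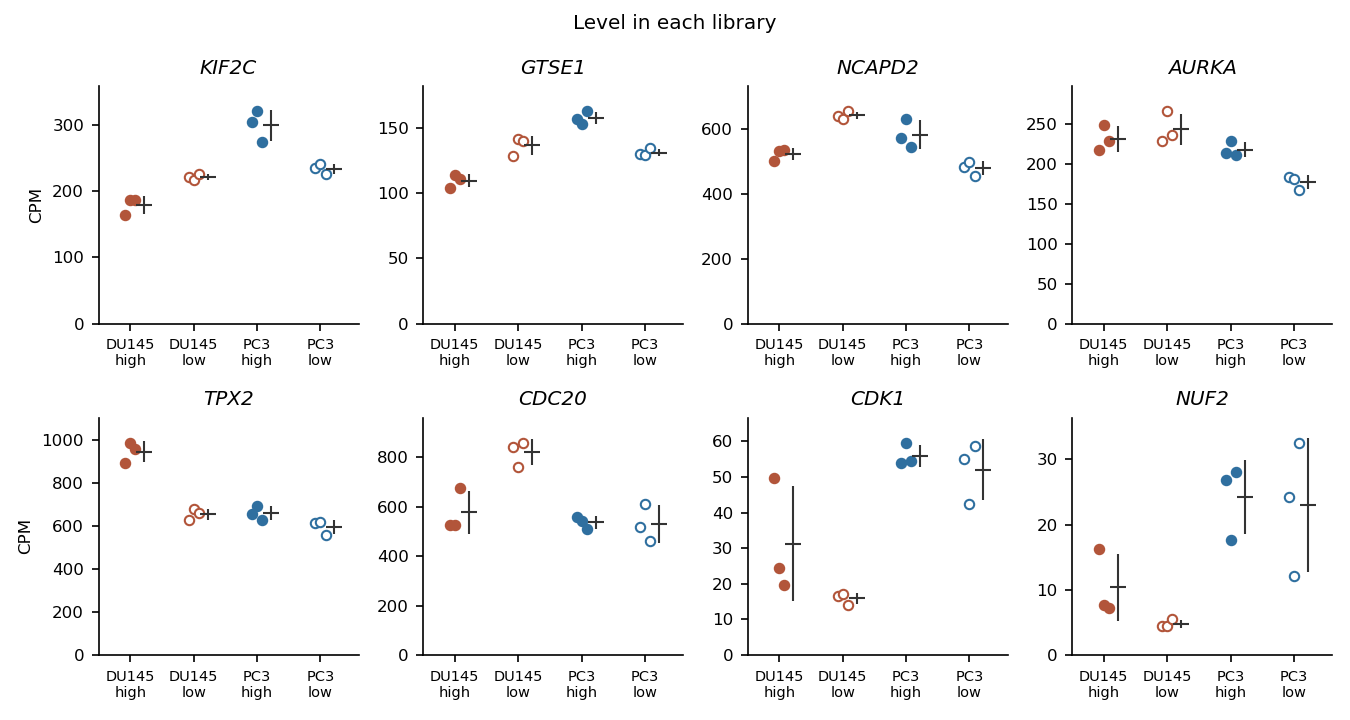
Level in CPM (y axis, from 0) of 8 members in each library, by line and sort; filled circles are GFP high and open circles GFP low libraries, and crosses give the mean ± SD of 3. KIF2C, GTSE1 and NCAPD2 are lower in GFP high than in GFP low libraries of DU145 and higher in those of PC3, TPX2 is separated in DU145, and for CDK1 and NUF2 DU145 GFP high replicate 1 lies far above the others.

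The promoters of 39 of the 44 members were found in the RefSeq table (GRCh38.p14), and those of AURKA, BIRC5, TPX2, TTK and UBE2C were not. They were searched from 150 bases before to 30 bases after the first listed start, on both strands, for the cell cycle genes homology region (CHR; TTTGAA or TTTAAA), which MuvB complexes bind, and for CCAAT, which NF-Y binds. A CHR match was present in 31 of 39 members (79.5%) and in 14.5% of the 27305 genes of the table. TTTGAA was present in 24 members (61.5%, against 8.75% of all genes) and TTTAAA in 11 (28.2%, against 6.94%). CCAAT was present in 27 members (69.2%, against 26.4%), and 19 members (48.7%, against 6.92%) had at least 2 copies. CHR and CCAAT matches occurred together in 23 members, and 4 members had neither. A match in letters is a description and not a measured binding site.

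The windows of the 3 genes that moved in opposite directions are shown with that of CDC20, a large DU145 fall, and of CCNB2, picked after the search because it has both motifs in the arrangement commonly described for this class. Capitals mark CHR and CCAAT matches on either strand, all 5 windows are on the plus strand, and coordinates are GRCh38.p14.
KIF2C chr1:44739687-44739866: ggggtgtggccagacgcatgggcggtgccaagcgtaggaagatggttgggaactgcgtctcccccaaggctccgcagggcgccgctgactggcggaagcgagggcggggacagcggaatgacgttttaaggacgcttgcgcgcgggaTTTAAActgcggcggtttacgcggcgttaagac
GTSE1 chr22:46296720-46296899: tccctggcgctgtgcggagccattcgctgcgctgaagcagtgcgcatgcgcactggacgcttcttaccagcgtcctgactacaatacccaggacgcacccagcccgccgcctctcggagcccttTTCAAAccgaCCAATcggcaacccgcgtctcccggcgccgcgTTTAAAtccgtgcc
NCAPD2 chr12:6493952-6494131: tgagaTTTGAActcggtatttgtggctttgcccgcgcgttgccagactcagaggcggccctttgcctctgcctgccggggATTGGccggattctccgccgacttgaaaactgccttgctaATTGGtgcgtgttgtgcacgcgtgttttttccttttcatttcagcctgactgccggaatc
CDC20 chr1:43358831-43359010: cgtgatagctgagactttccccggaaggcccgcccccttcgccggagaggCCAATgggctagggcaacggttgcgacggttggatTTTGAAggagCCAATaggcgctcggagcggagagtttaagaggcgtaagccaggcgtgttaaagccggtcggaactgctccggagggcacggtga
CCNB2 chr15:59104996-59105175: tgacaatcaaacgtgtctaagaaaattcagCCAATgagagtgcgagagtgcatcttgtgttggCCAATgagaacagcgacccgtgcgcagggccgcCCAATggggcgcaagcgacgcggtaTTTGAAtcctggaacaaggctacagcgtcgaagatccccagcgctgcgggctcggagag
CCNB2 had 3 CCAAT copies upstream of a TTTGAA whose first base lay 29 bases before the start, and CDC20 had 2 CCAAT copies around a TTTGAA at 65 bases. KIF2C had a TTTAAA at 3 bases before the start and no CCAAT, GTSE1 had a reverse-strand TTTGAA at 26 bases before the start, a TTTAAA at 17 bases after it and 1 CCAAT, and NCAPD2 had a TTTGAA at 145 bases before the start and 2 reverse-strand CCAAT copies. In GENCODE 29 the genes span chromosome 1, 44739818 to 44767767 for KIF2C, chromosome 22, 46296741 to 46330810 for GTSE1, chromosome 12, 6493356 to 6531955 for NCAPD2, chromosome 1, 43358955 to 43363203 for CDC20 and chromosome 15, 59105078 to 59125045 for CCNB2.

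Among the cyclin, CDK1 and CDC25 genes, CDK1 rose and CDC25B and CCNB1 fell in DU145 GFP high cells, and none of the 6 passed the test in PC3. CDK1, the catalytic kinase of mitotic entry, was at 49.7, 24.4 and 19.6 CPM in DU145 GFP high and 16.6, 17 and 14.1 CPM in DU145 GFP low. All GFP high libraries lay above all GFP low ones, with replicate 1 far above the rest. The log2 fold change was 0.86 ± 0.25 (limma adjusted p = 0.0274). It missed the threshold without DU145 GFP high replicate 1 or 2 or GFP low replicate 1 or 3 (log2 fold change 0.46 to 0.98, adjusted p 0.0561 to 0.105). In PC3 CDK1 overlapped between sorts, at 53.8, 59.5 and 54.4 CPM in GFP high and 55.0, 42.4 and 58.7 CPM in GFP low.

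CDC25B, the phosphatase that activates CDK1 first at centrosomes, fell in DU145. It was at 207, 208 and 246 CPM in GFP high and 298, 271 and 312 CPM in GFP low, a log2 fold change of -0.42 ± 0.09 (limma adjusted p = 0.00791). The sorts were separate in DU145, and the fall passed with any single library left out but not without GFP high replicates 1 and 2 together (log2 fold change -0.25, adjusted p = 0.401). In PC3 it was at 248, 256 and 229 CPM in GFP high and 223, 241 and 205 CPM in GFP low, which overlapped. CCNB1, cyclin B1, fell by 0.25 in DU145 on the log2 scale (adjusted p = 0.0419) and missed the threshold with any of 8 libraries left out in turn (0.0505 to 0.196). CCNA2, CCNB2 and CDC25C had log2 fold changes of 0.20, 0.06 and -0.21 in DU145 and 0.22, 0.21 and 0.26 in PC3, none past the threshold.

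Of the kinases other than AURKA, NEK2 rose in DU145 and PLK1 passed in neither line. NEK2, which separates centrosomes at mitotic entry, was at 17.9, 17.1 and 12.1 CPM in DU145 GFP high and 8.82, 13.3 and 7.34 CPM in GFP low. GFP high replicate 3 lay below GFP low replicate 2, so the sorts overlapped, and the log2 fold change was 0.70 ± 0.21 (limma adjusted p = 0.0268). It missed the threshold without GFP high replicate 1 or 2 or GFP low replicate 1 or 3 (adjusted p 0.0892 to 0.121). In PC3 NEK2 was at 23.1, 28.5 and 25.7 CPM in GFP high and 22.2, 18.7 and 20.8 CPM in GFP low, a change of 0.32 in log2 that did not pass (adjusted p = 0.398). PLK1, the polo kinase, had log2 fold changes of -0.24 in DU145 (adjusted p = 0.0586) and 0.25 in PC3 (adjusted p = 0.102).

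The chromosomal passenger complex corrects attachments and drives cytokinesis, and 2 of its 3 measured subunits fell in DU145. AURKB, its kinase, was at 157, 159 and 194 CPM in GFP high and 215, 209 and 214 CPM in GFP low, a log2 fold change of -0.33 ± 0.11 (limma adjusted p = 0.0402). BIRC5, survivin, fell by 0.26 on the log2 scale (adjusted p = 0.0451), and CDCA8, borealin, was at -0.27 (adjusted p = 0.0554). The DU145 sorts did not overlap for any of the 3. The AURKB call was lost with any of 8 libraries left out in turn (adjusted p 0.0502 to 0.158) and the BIRC5 call with any of 6 left out (0.0619 to 0.167). In PC3 the 3 subunits had log2 fold changes of 0.12 (AURKB), 0.12 (BIRC5) and 0.27 (CDCA8), and none passed. AURKB in PC3 was at 177, 178 and 154 CPM in GFP high and 154, 183 and 135 CPM in GFP low.

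In the spindle checkpoint, BUB1, BUB1B and TTK passed in neither line. Their DU145 log2 fold changes were 0.30 for BUB1 (adjusted p = 0.0900), 0.24 for BUB1B (adjusted p = 0.0790) and 0.65 for TTK (adjusted p = 0.108), and their PC3 values were 0.16, 0.24 and -0.01. Among the anaphase-promoting complex genes, only CDC20 passed, with a fall in DU145. CDC20, the activator that the checkpoint blocks, was at 527, 527 and 676 CPM in DU145 GFP high and 841, 760 and 857 CPM in GFP low. Every GFP high library lay below every GFP low library, and the log2 fold change was -0.51 ± 0.11 (limma adjusted p = 0.00871). Without GFP high replicates 1 and 2 together CDC20 was at -0.28 and did not pass (adjusted p = 0.451). In PC3 CDC20 was at 560, 541 and 509 CPM in GFP high and 516, 611 and 463 CPM in GFP low, with overlap and a log2 fold change of 0.03 ± 0.11. UBE2C, the ubiquitin-conjugating enzyme of the complex, had a log2 fold change of -0.28 in DU145 (adjusted p = 0.0654) and 0.10 in PC3, and PTTG1, securin, -0.08 in DU145 and 0.32 in PC3 (adjusted p = 0.0572).

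NUF2 was the only centromere and kinetochore member past the threshold in either line. It is a subunit of the NDC80 complex, which binds microtubule ends. NUF2 was at 16.3, 7.74 and 7.18 CPM in DU145 GFP high and 4.46, 4.42 and 5.5 CPM in GFP low, with GFP high replicate 1 far above the others. The log2 fold change was 1.02 ± 0.35 (limma adjusted p = 0.0476), and it missed the threshold with any of 9 libraries left out in turn (adjusted p 0.0511 to 0.217). In PC3 it was at 26.8, 17.7 and 28.1 CPM in GFP high and 24.3, 12.1 and 32.5 CPM in GFP low, a wider spread within sorts than between them. NDC80, its partner, had log2 fold changes of 0.20 in DU145 and 0.05 in PC3. CENPA, the centromeric histone, and HJURP, its chaperone, had -0.10 and -0.11 in DU145 and 0.20 and 0.18 in PC3. CENPE and CENPF, large kinetochore proteins, had 0.52 ± 0.54 and 0.62 ± 0.31 in DU145, with errors wide enough that neither passed.

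Among the kinesins, KIF11 and KIF23 rose in DU145 beside the fall of KIF2C. KIF11, the motor that pushes spindle poles apart, had a log2 fold change of 0.49 ± 0.17 (limma adjusted p = 0.0456), and KIF23, a centralspindlin motor of cytokinesis, was at 0.45 ± 0.13 (adjusted p = 0.0275). KIF11 lost its call with any of 8 libraries left out in turn (adjusted p 0.0534 to 0.2) and KIF23 without DU145 GFP high replicate 1 or 2 or GFP low replicate 1 or 3 (0.0985 to 0.109). KIF20A, which brings the passenger complex to the midzone, had -0.12 in DU145 and 0.21 in PC3 (adjusted p = 0.0723). KIF20B, a midzone motor, had 0.49 ± 0.42 in DU145.

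TPX2 rose in DU145 GFP high cells with the smallest adjusted p of the 44 members. TPX2 nucleates spindle microtubules around chromosomes and activates Aurora A. It was at 891, 985 and 956 CPM in DU145 GFP high and 628, 676 and 658 CPM in GFP low. The lowest GFP high library lay well above the highest GFP low one, and the log2 fold change was 0.53 ± 0.07 (limma adjusted p = 0.000479). It passed under all 28 alternative settings, at 0.44 to 0.77. In PC3 TPX2 was at 657, 691 and 628 CPM in GFP high and 614, 617 and 559 CPM in GFP low, with no overlap and a log2 fold change of 0.14 ± 0.07 that missed the threshold (adjusted p = 0.244). The DU145 effect exceeded the PC3 effect by 0.39 (adjusted p = 0.0195), the only difference between lines in that direction to pass. That difference missed the threshold without DU145 GFP high replicate 2, DU145 GFP low replicate 1 or PC3 GFP low replicate 1 (limma adjusted p 0.0518 to 0.0577). With equal medians the difference was 0.26 and missed it too (limma adjusted p = 0.197). It was also missed without DU145 GFP high replicates 1 and 2 together, where 1 library of that group remained.

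CKAP2, a spindle-pole protein, was at 44.7, 35.7 and 30.8 CPM in DU145 GFP high and 22.2, 25.9 and 23.9 CPM in GFP low. The sorts did not overlap, and the log2 fold change was 0.61 ± 0.19 (limma adjusted p = 0.0311). It missed the threshold without DU145 GFP high replicate 1 or 2 or GFP low replicate 1 or 3 (adjusted p 0.0833 to 0.142). In PC3 it was at 67.4, 46.9 and 64.4 CPM in GFP high and 76.7, 49.1 and 76.1 CPM in GFP low, with overlap. HMMR, a hyaluronan receptor that acts at spindle poles, had the largest DU145 estimate of the set, 1.03 ± 0.41, and did not pass (adjusted p = 0.0761). NUSAP1, DLGAP5 and CKAP5 had 0.26, 0.37 and 0.26 in DU145, and none of them passed in either line.

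Besides NCAPD2, no gene of chromosome structure passed in either sort comparison. SMC2 and SMC4, the ATPase core of condensin, had DU145 log2 fold changes of 0.73 (adjusted p = 0.0797) and 0.77 (adjusted p = 0.0558), opposite in sign to that of NCAPD2. TOP2A, the mitotic topoisomerase, had 0.44 in DU145 (adjusted p = 0.0903) and 0.03 in PC3. MKI67, which encodes the proliferation marker Ki-67, had 0.10 ± 0.11 in DU145 (adjusted p = 0.518) and 0.33 ± 0.11 in PC3 (adjusted p = 0.0833). ANLN, ECT2 and CDCA3, of cytokinesis and mitotic entry, had 0.25, 0.52 and -0.24 in DU145 and 0.02, 0.11 and 0.21 in PC3, none past the threshold. SMC4 shares 1561 exonic bases with TRIM59 and CDCA3 549 with GNB3, both on the opposite strand, and the strandedness of the counts is not given in the sources used here.

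The GFP effect differed between lines for 12 members, 1 higher in DU145 (7.06% of all genes were) and 11 lower (8.82% of all genes). Besides KIF2C, GTSE1, NCAPD2 and TPX2 these were CDC25B (-0.55, limma adjusted p = 0.0117), CDCA8 (-0.54, 0.0202), CDC20 (-0.54, 0.0356), PLK1 (-0.49, 0.0201), CDCA3 (-0.45, 0.0428), CCNB1 (-0.42, 0.0310), AURKA (-0.37, 0.0385) and KIF20A (-0.32, 0.0372), each given as the DU145 minus the PC3 effect. The count was 5 without DU145 GFP low replicate 1, PC3 GFP high replicate 1 or 2 or PC3 GFP low replicate 1 (9.14 to 9.79% of all genes called either way, against 15.9% with all libraries). Leaving out DU145 GFP high replicate 1 gave 6 (9.83%), and the count was 7 without replicate 3 of either GFP low group (9.19% in DU145 and 10.3% in PC3). It was 22 without DU145 GFP high replicate 3 (29.2%) and 21 without PC3 GFP low replicate 2 (26.8%).

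The direction of the DU145 effect followed the GC content of the transcripts. Over the 44 members, which share libraries and base composition, Spearman's rho between GC content and log2 fold change was -0.88 in DU145, where it was -0.64 over 12510 genes, and 0.61 in PC3, where it was -0.11 over all genes. Of the 22 members with the lowest GC content (34.2 to 43.2%), 6 rose and 1 fell in DU145, with a median log2 fold change of 0.51 against 0.44 for all genes in that GC range, of which 32.5% rose and 1.08% fell. Of the 22 with the highest (43.2 to 59.3%), 1 rose and 7 fell, with a median of -0.23 against -0.09 for all genes in that range, of which 6.74% rose and 16.8% fell. In PC3 none of the first 22 passed, while 4 of the second 22 did and all 22 were above 0, with a median of 0.21 against 0.001 for all genes in that range. In PC3 1.79% of all genes rose and 1.42% fell in the first range, and 5.83% rose and 5.41% fell in the second.

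**Figure D3:**
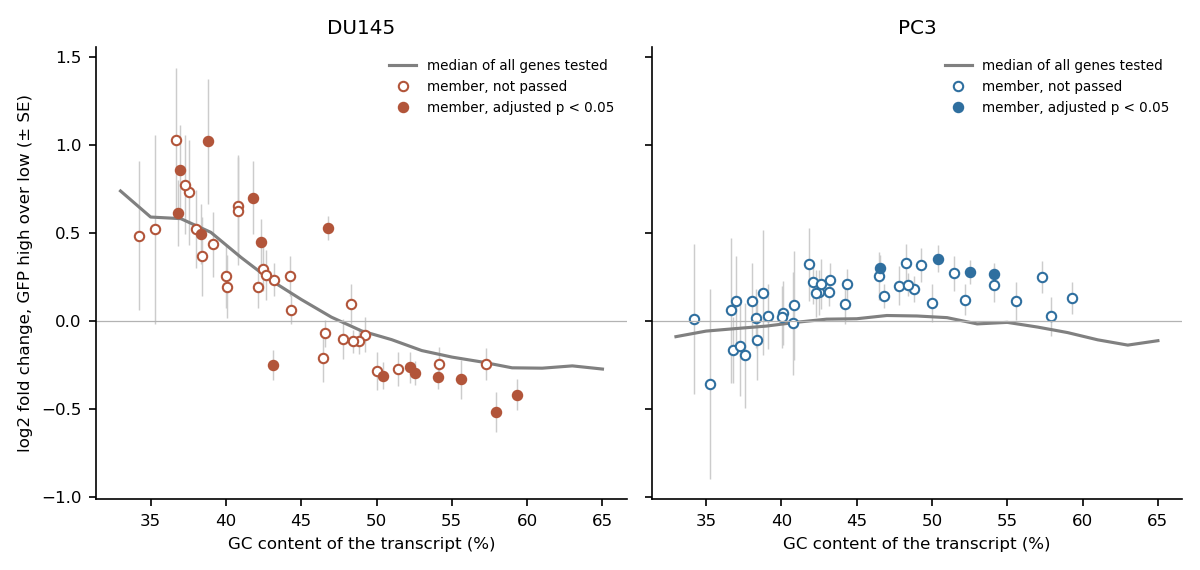
Log2 fold change of GFP high over GFP low (y axis, ± SE) against the GC content of the transcript (x axis, %) in DU145 and PC3; circles are members, filled where the adjusted p is under 0.05, and the grey line is the median of all genes tested in bins of GC content. In DU145 most members lie along the falling grey line with TPX2 above it, and in PC3 the members of higher GC content lie above the line.

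With the trend in GC content and length removed from each library, 3 members rose and 7 fell in DU145, where 7.1% of all genes then rose and 14.1% fell, and 15 rose and 0 fell in PC3, where 11% of all genes then rose and 8.98% fell. All 15 were among the 22 members of higher GC content. KIF11, CKAP2, KIF23, NUF2, AURKB, BIRC5 and the DU145 fall of GTSE1 lost their DU145 calls without the trend, and KIF11 changed sign (-0.06). The correlation with GC content over the members remained at -0.43 in DU145 and 0.66 in PC3. The part of GC content in these results was not tested.

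The libraries differed along the same axis within a sort. Against the mean of the line, the median of the 22 members of lowest GC content was 0.58 on the log2 scale in DU145 GFP high replicate 1, 0.22 in replicate 2 and -0.15 in replicate 3. In the DU145 GFP low libraries it was -0.35, -0.09 and -0.28. DU145 GFP high replicate 1 held the highest DU145 value for 22 members and the lowest for 15. In PC3 GFP low the same median was 0.12, -0.39 and 0.26, and in PC3 GFP high 0.16, -0.27 and 0.13. PC3 GFP low replicate 2 held the lowest PC3 value for 24 members, and PC3 GFP high replicate 2 the highest for 18. All 44 members were above their PC3 mean in PC3 GFP high replicate 1.

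**Figure D4:**
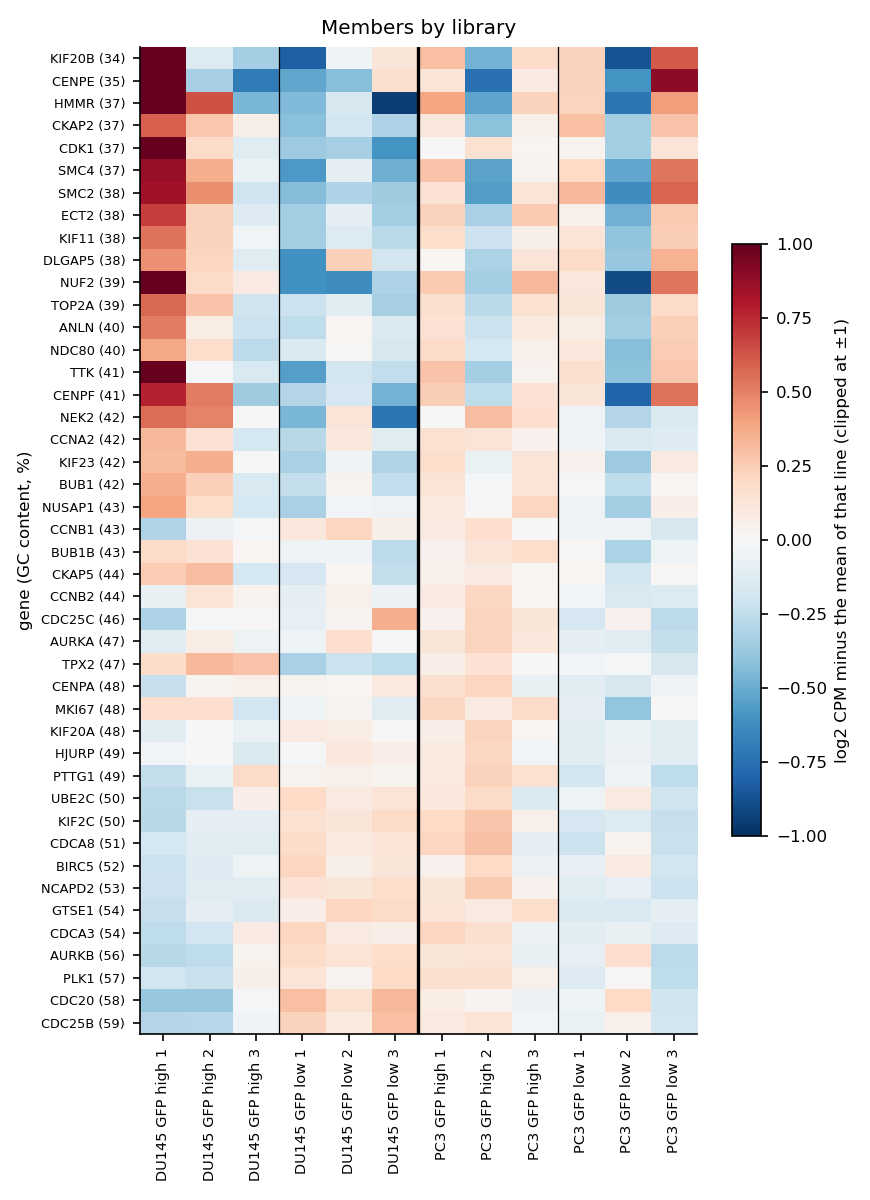
Heat map of the 44 members (rows, ordered by GC content, in brackets) in the 12 libraries (columns), as log2 CPM minus the mean of that gene in the same line, clipped at 1 either way. Rows of low GC content are red in DU145 GFP high replicate 1 and blue in replicate 2 of both PC3 sorts. The 22 rows of highest GC content have medians of -0.21, -0.08 and -0.03 in DU145 GFP high replicates 1, 2 and 3. Their medians in PC3 GFP high replicates 1, 2 and 3 are 0.10, 0.20 and 0.02. TPX2, among these rows, is above its line mean in DU145 GFP high.

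The sorts did not overlap for 21 members in DU145, 10 with GFP high above and 11 below, where 40.5% of all genes tested did not overlap. In PC3 they did not overlap for 17 members, all with GFP high above, and over all genes 14.0% were above and 16.4% below without overlap. The 17 were CCNA2, CCNB1, CCNB2, CDC25C, PLK1, AURKA, NEK2, BUB1B, PTTG1, HJURP, KIF2C, KIF20A, TPX2, GTSE1, NCAPD2, MKI67 and CDCA3, of which 4 passed the test.

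Between the lines as labelled, 8 members were higher in DU145, where 38.3% of all genes were higher, and 28 were lower, where 39.2% of all genes were lower. The median difference was -0.43 (DU145 minus PC3, log2), and the members' share called, 81.8%, was close to the 77.5% of all genes. The lowest in DU145 were CENPE, KIF20B, TTK and HMMR. CENPE, the kinetochore motor that moves chromosomes to the plate, ran from 2.91 to 16.6 CPM in DU145 (median 3.64) and from 19.2 to 59.8 CPM in PC3 (median 34.6), a difference of -2.77 ± 0.38 (limma adjusted p = 1.55e-05). KIF20B ran from 4.88 to 19.7 CPM in DU145 (median 8.08) and from 24.8 to 69.3 CPM in PC3 (median 52.4), a difference of -2.40 ± 0.30 (adjusted p = 6.19e-06). For both, the lines did not overlap.

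TTK, the kinase also known as MPS1 that starts checkpoint signalling, ran from 6.52 to 21.2 CPM in DU145 (median 8.5) and from 37.5 to 60.5 CPM in PC3 (median 53.1), with a difference of -2.38 ± 0.21 (limma adjusted p = 1.81e-07). HMMR ran from 4.58 to 22.5 CPM in DU145 (median 7.15) and from 21.8 to 48.2 CPM in PC3 (median 42.3), with a difference of -2.04 ± 0.29 (adjusted p = 2.17e-05), and the ranges overlapped only through DU145 GFP high replicate 1. The highest in DU145 were UBE2C (0.47, adjusted p = 7.43e-05), CDCA3 (0.43, 6.00e-05), CDC20 (0.37, 0.000807) and TPX2 (0.33, 3.53e-05). UBE2C ran from 157 to 217 CPM in DU145 (median 200) and from 119 to 156 CPM in PC3 (median 139) with no overlap, and CDCA3 from 82.1 to 113 CPM (median 103) against 66.3 to 84.1 CPM (median 69.3). CDC20 ran from 527 to 857 CPM (median 718) in DU145 and from 463 to 611 CPM (median 528) in PC3, and TPX2 from 628 to 985 CPM (median 784) and from 559 to 691 CPM (median 622), both with overlap.

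This difference also went with GC content. Spearman's rho over the 44 members was 0.88, and 0.57 over all genes. All 22 members of lowest GC content were lower in DU145, with a median of -1.19 against -0.75 for all genes in that range, of which 76.1% were lower and 8.66% higher. Of the 22 of highest GC content, 8 were higher and 6 lower, where 45.5% of all genes in that range were higher and 28.3% lower. Its part in the difference between lines was not tested.

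**Figure D5:**
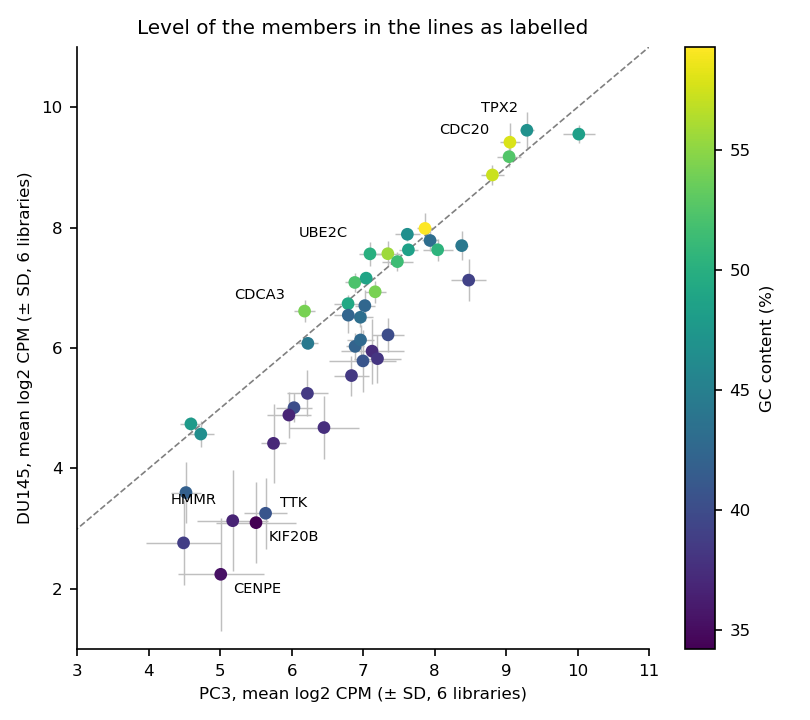
Mean log2 CPM of the 44 members in PC3 (x axis) and DU145 (y axis), ± SD over 6 libraries of both sorts, coloured by GC content, with the dashed line at equal levels. Members of low GC content, with CENPE, KIF20B, TTK and HMMR furthest, lie below the line, and UBE2C, CDCA3, CDC20 and TPX2 lie above it.

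Per kilobase of the longest coding transcript, CDC20 was the most abundant member, at 393 ± 83 CPM per kb in DU145 (SD, n = 6) and 300.1 ± 28.3 in PC3. PLK1, TPX2 and UBE2C followed in DU145, at 212 ± 25, 222 ± 45 and 209 ± 27 CPM per kb. These values pool both sorts, so their spread includes the difference between sorts. TPX2 was at 944 ± 48 CPM in DU145 GFP high and 654 ± 24 CPM in GFP low (SD, n = 3). PLK1 (433 ± 48 and 511 ± 28 CPM) and UBE2C (173 ± 22 and 209 ± 8 CPM) went the other way. The pooled values therefore do not rank these 3 genes. In PC3 these 3 were at 202 ± 23, 174 ± 12 and 150.3 ± 16.0 CPM per kb. MKI67 was at 59.5 ± 6.1 CPM per kb in DU145 and 82.5 ± 12.1 in PC3. The lowest were KIF20B, at 1.48 ± 0.82 in DU145 and 7.46 ± 2.54 in PC3, and CENPE, at 0.685 ± 0.616 in DU145 and 4.01 ± 1.69 in PC3.

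Other genes of the pathway, outside the 44, were drawn from 8 lists of which 158 of 159 genes were in the table. Of the 157 tested, 18 rose and 27 fell in DU145 (28.7% called, 27.1% of all genes), and 10 rose and 0 fell in PC3 (6.37% called, 9.44% of all genes). At an unadjusted limma p under 0.05, 22 were higher and 5 lower in PC3 (14% and 3.18%), against 10% and 12.6% of all genes. After adjustment limma-voom called 10 higher and 0 lower (6.37% and 0%), against 4.5% and 5.55% of all genes. The DU145 counts were 6 higher and 11 lower without DU145 GFP high replicate 1, and 7 and 12 without GFP high replicate 2. They were 8 and 14 without GFP low replicate 1, and 7 and 14 without GFP low replicate 3. In these settings 3.07 to 4.94% of all genes rose and 4.08 to 5.62% fell. Without DU145 GFP high replicate 3 the DU145 counts were 53 and 38 (33.8% and 24.2%), where 22.2% of all genes rose and 22.5% fell. Without PC3 GFP low replicate 2 they were 36 and 29 (22.9% and 18.5%), where 16.5% of all genes rose and 17.5% fell. The PC3 count was 4 without PC3 GFP high replicate 1 or 2, where 2.25 and 2.34% of all genes rose. It was 5 without PC3 GFP low replicate 1 (2.7%) and 6 without PC3 GFP low replicate 2 (3.54%). The DU145 counts were lower without DU145 GFP high replicates 1 and 2 together, as was the share of all genes called. The PC3 count was lower without PC3 GFP low replicates 2 and 3 together, again with that share. Each of these fits leaves 1 library in a group. Calls of that line named below were not shown to hold there unless stated.

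Among 23 transcription factors of the G2/M programme, 1 rose and 4 fell in DU145 and 1 rose in PC3. FOXM1, the forkhead activator of G2/M genes, moved in opposite directions in the lines. It was at 332 ± 27 CPM in DU145 GFP high and 435 ± 11 CPM in GFP low (SD, n = 3), a log2 fold change of -0.40 ± 0.07 (limma adjusted p = 0.00400), and at 369 ± 11 and 292 ± 20 CPM in PC3, a log2 fold change of 0.34 ± 0.07 (adjusted p = 0.00990). The difference of -0.74 (adjusted p = 0.000614) passed under all 27 alternatives, and both effects passed with any single library left out. The DU145 fall missed the threshold without DU145 GFP high replicates 1 and 2 together (-0.26, adjusted p = 0.26), and the PC3 rise without PC3 GFP low replicates 2 and 3 together (0.33, adjusted p = 0.105). E2F7, an atypical E2F repressor, rose in DU145 (0.55 ± 0.10, adjusted p = 0.00425). With the trend in GC content and length removed it was at 0.20 and missed the threshold (adjusted p = 0.0501).

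Of 14 other regulators of CDK1 and mitotic entry, 3 rose and 1 fell in DU145 and 2 rose in PC3. CDC25A, a phosphatase of CDK2 and CDK1, rose in PC3 (0.53 ± 0.11, limma adjusted p = 0.00837) and had -0.30 in DU145 (adjusted p = 0.0604), with a difference of -0.83 (adjusted p = 0.00400). LATS2, a Hippo pathway kinase, rose in DU145 (0.47, adjusted p = 0.00515) and in PC3 (0.31, adjusted p = 0.0476), the latter lost with any of 10 libraries left out in turn (0.0504 to 0.167). Of 22 other checkpoint and anaphase-promoting complex genes, 4 rose and 4 fell in DU145 and 1 rose in PC3. TRIP13, the ATPase that disassembles the checkpoint complex, fell in DU145 (-0.50 ± 0.06, adjusted p = 0.000324) under all 28 alternatives, and FZR1, the other activator of the anaphase-promoting complex, fell too (-0.51 ± 0.09, adjusted p = 0.00339).

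Of 27 other kinetochore genes, 4 rose and 4 fell in DU145 and 2 rose in PC3. In DU145, CENPM, of the inner kinetochore, fell (-0.49 ± 0.10, limma adjusted p = 0.00682) and MIS12, of the outer, rose (0.67 ± 0.15, adjusted p = 0.00839). Of 16 other spindle and cytokinesis genes, 1 rose and 4 fell in DU145 and 2 rose in PC3. KIF18B, a depolymerising kinesin of astral microtubules, fell in DU145 (-0.28 ± 0.07, adjusted p = 0.0146) and rose in PC3 (0.32 ± 0.07, adjusted p = 0.0129). It missed the threshold in DU145 without GFP high replicate 1 or 2 or GFP low replicate 1 or 3 (0.0517 to 0.0614), and in PC3 without GFP high replicate 1 or 2 or GFP low replicate 1 (0.0566 to 0.0678). The minus-end motor KIFC1 fell in DU145 (-0.37 ± 0.08, adjusted p = 0.00814).

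Of 16 other condensin and cohesin genes, 3 rose and 1 fell in DU145 and 1 rose in PC3. RAD21, the cleavable subunit of cohesin, rose in DU145 (0.75 ± 0.14, limma adjusted p = 0.00525) and had -0.08 in PC3, and NCAPH, a condensin I subunit like NCAPD2, rose in PC3 (0.26 ± 0.07, adjusted p = 0.0287) and had -0.14 in DU145. NCAPH lost the PC3 call without PC3 GFP high replicate 1 or 2 or GFP low replicate 1 or 2 (0.0776 to 0.120). Of 9 CDK inhibitor and quiescence genes tested, CDKN2D fell in DU145 (-0.50 ± 0.16, adjusted p = 0.0377), which missed the threshold with any of 7 libraries left out in turn (0.0521 to 0.168), and none passed in PC3. CCNG2, a cyclin of quiescent cells, had 0.49 in DU145 and -0.57 in PC3 and passed in neither, although the difference between lines passed. That difference missed the threshold with any of 9 libraries left out in turn (limma adjusted p 0.0573 to 0.115). Of 30 G1/S and replication genes, 2 rose and 8 fell in DU145 and 1 rose in PC3. CDC45, of the replicative helicase, and TYMS, thymidylate synthase, fell in DU145, by 0.445 and 0.397 on the log2 scale (adjusted p 0.00300 and 0.00237).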

How the data were processed

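RNA was sequenced in 12 libraries, 3 for each of 4 groups assigned from the labels. STAR and DESeq2 are named, with no version, in the submitters' processing notes. The build and the counting step are not given in the sources used. Per the labels, the deposited values are log2 normalized counts. Their steps showed that the authors' values are log2 CPM, from the count + 0.5 over a scaled library total, so estimated counts could be recovered (86.9% whole within 0.01 in the median library). CPM printed here are 2 to the power of these values and include the offset.

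The test of every difference was limma (version 3.58.1, R version 4.3.3; 4 group means, 8 residual degrees of freedom, trended eBayes, two-sided) on the 12527 genes with a log2 value of at least 0 (1 CPM) in at least 3 libraries. P-values were adjusted by Benjamini-Hochberg over all of them, at 0.05. All 44 members passed this minimum. On simulated data the script was tested for recovery of known changes. The members and lists were chosen with earlier results of these data known. Members named with full values are those past the threshold in PC3, the 5 largest rises and falls in DU145 and the 3 largest differences of the GFP effect each way (every library), and the 4 largest line differences each way (lowest, median and highest of 6 libraries). At most 2 genes are named from each other list, those of smallest p in either line. GC content, length and positions come from GENCODE 29. Promoters come from RefSeq (GRCh38.p14). Up to 28 alternatives were run for each result, covering normalization, the minimum, the offset, the model, GC content and the libraries used.

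The sorts of a line carry the same replicate numbers, so deviations of same-numbered libraries from their group means were correlated. The values were -0.02, 0.09 and 0.21 in DU145 and 0.06, 0.20 and 0.15 in PC3, not all above 0.1, and the numbers were not taken to pair the libraries.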

Additional observations from a re-analysis of the deposited data

Results flagged for a closer look

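The GFP effect differed between the lines by the interaction term of the limma fit for 12 members (27.3%), where it did for 15.9% of all genes tested. The difference is the DU145 minus the PC3 log2 fold change, at -0.66 for KIF2C, -0.58 for GTSE1, -0.58 for NCAPD2, -0.55 for CDC25B, -0.54 for CDCA8, -0.54 for CDC20, -0.49 for PLK1, -0.45 for CDCA3, -0.42 for CCNB1, -0.37 for AURKA, -0.32 for KIF20A and 0.39 for TPX2. All GFP high libraries lay below all GFP low libraries in DU145 and above them in PC3 for CCNB1, KIF2C, KIF20A, GTSE1 and NCAPD2. The share of all genes with this pattern is not given here.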

How the results depend on the processing

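Of the comparisons counted over members, that between the lines (36 called) stayed within 1.5 times under every alternative run, at 31 to 40. With 36 of 44 called, this count had little room to rise. Removing the GC and length trend left the log2 fold changes of DU145 over PC3 unchanged. Their median for the 22 members of lowest GC content was -1.19 either way. That removal therefore could not test how far the line comparison depends on GC content. The 7 DU145 rises became 2 with quantile normalization, 4 with limma-voom, 2 without the mean-variance trend, 23 with array weights, 3 with the GC and length trend removed, 1 without DU145 GFP high replicates 1 and 2 together and 1 at an adjusted p under 0.01. The share of all genes that rose in DU145, 13.1%, became 9.21, 10.7, 9.33, 28.2, 7.1 and 0.575% in the first 6 of these. The 8 DU145 falls became 2 with quantile normalization, 5 with no minimum, 5 without the trend and 3 at 0.01. The share of all genes that fell in DU145, 13.9%, became 8.77, 7.84 and 10.4% in the first 3 of these. The 4 PC3 rises became 8 with quantile normalization, 2 without the trend, 12 with array weights, 15 with the GC trend removed, 0 without PC3 GFP low replicates 2 and 3 together (7 at an unadjusted limma p under 0.05) and 1 at 0.01. The share of all genes that rose in PC3, 4.17%, became 5.07, 3.55, 13.6, 11 and 1.8% in the first 5 of these. The 12 differences between lines became 7 without the trend, 33 with array weights, 19 with the GC trend removed and 3 at 0.01. The share of all genes called in the difference, 15.9%, became 12.9, 51.2 and 24.6% in the first 3 of these. That count and that share were also lower without DU145 GFP high replicates 1 and 2 together, where 1 library of that group remained. Leaving out each library in turn gave 1 to 19 DU145 rises, 3 to 11 falls, 0 to 7 calls in PC3 and 5 to 22 differences. The causes were not tested.

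The replicate block gave 16 DU145 rises (19.7% of all genes rose), 8 PC3 calls (12.4% of all genes called) and 24 differences (26.5%). The block with the GC trend removed gave 14 PC3 calls (21.7% of all genes called) and 20 differences (28.2%). In PC3 every library correlated best with its own number, and in DU145 not all did.

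Among values called with or without the alternative, those that changed sign were PLK1 between lines, -0.16, and NCAPD2 between lines, -0.085, with quantile normalization, and KIF20A between lines, 0.14, with equal medians. With the GC trend removed, with or without the replicate block, KIF11 was at -0.064 and ANLN at -0.23 in DU145. Values called in neither setting changed sign too, such as CENPE and KIF20B in DU145, which reached -0.44 and -0.26 at the lowest. Equal medians moved the median of all genes by -0.13 in the difference and 0.15 (log2) between lines, and quantile normalization by -0.10 in the difference.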
